A study of Mus musculus with 16 samples.

Results

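Gene expression in regulatory T cells (Treg) was compared with that in conventional CD4+ T cells (Tconv) of NOD mice, an inbred strain that develops autoimmune diabetes. The comparison took the 8 arrays of the NOD background out of the 16 arrays of the series by their labels, 4 from Treg and 4 from Tconv. The other 8 arrays came from B6 mice sorted in the same way and entered the filter on dim genes and the test of where NOD and B6 differed. All mice were male and 6 weeks old, and the cells came from the spleen.

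Treg were sorted on a MoFlo instrument as CD3+, CD4+ and GFP+ cells, and Tconv as CD3+, CD4+ and GFP- cells, so GFP driven from the Foxp3 locus was the only gate that set them apart. Every NOD mouse carried a Foxp3 reporter, and there was no group without GFP. In the Foxp3-GFP allele, called fusion here, GFP is part of the Foxp3 protein. In the Foxp3-IRES-GFP allele, called ires here, GFP is made from the same transcript as a separate protein and Foxp3 is left intact. Each combination of cell type and reporter line had 2 arrays. The labels do not tell whether the 2 came from different mice or pools, so the p-values measure the spread between arrays, which may be technical. Treg and Tconv were told apart by GFP alone, so Tconv here include every CD4+ T cell without GFP, naive or activated.

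Treg are the CD4+ T cells that restrain immune responses, and mice or people without working Foxp3 develop fatal autoimmunity. Foxp3 acts with partners such as the Ikaros family and holds high the interleukin-2 receptor and inhibitory receptors while silencing cytokine genes. Treg make little interleukin-2 and depend on that of other T cells. In NOD mice, variants in several genes of this circuit, among them Il2 and Ctla4, contribute to diabetes.

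The values are log2 intensities, so a difference of 1 is 2-fold. Values of single arrays are given in the order of the labels' numbers within the fusion and the ires line. Differences are Treg minus Tconv ± SE from a linear model over the 8 NOD arrays with the reporter line as a block (4 against 4 arrays). A gene was called at a Benjamini-Hochberg adjusted p under 0.05 over the 12798 genes tested. The median intensity was 86.7 to 96.0 over the NOD arrays, and precision is limited by how few arrays there were. Between the 2 arrays of a NOD group the log2 difference had an SD of 0.20 to 0.22.

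The labels held in the genes of the sort. Foxp3 read 11.47 and 11.52 (fusion) and 11.94 and 12.16 (ires) in Treg. It read 7.12 and 8.18 (fusion) and 7.57 and 7.68 (ires) in Tconv. Every Treg array lay more than 3 log2 units above every Tconv array, a difference of 4.13 ± 0.19 (17.5-fold, adjusted p = 6.71e-08). The T cell receptor chain Cd3e was at 11.58 to 11.84 in Treg and 11.57 to 11.65 in Tconv and was not called (0.08 ± 0.07, adjusted p = 0.492). Cd4 was present in every array and in Treg it fell by 0.45 ± 0.07 (adjusted p = 0.00112), from 11.56 to 11.72 in Tconv to 11.08 to 11.34 in Treg.

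The first Tconv array of the fusion line stood apart in genes of B cells and MHC class II. Cd74, the chaperone of MHC class II, read 8.27 there and 6.10 to 6.46 in the other 3 Tconv arrays. H2-Aa read 7.33 against 5.26 to 5.62, and the B cell receptor for complement Cr2 6.66 against 4.61 to 5.11. Among myeloid markers, Lyz2 (6.30 against 4.78 to 5.39) and S100a9 (6.79 against 5.55 to 6.08) were high there too, while Cd68 and Itgam were not. The intensities of 13 measured B and plasma cell markers summed to 628 to 692 over the Treg arrays and 572 to 971 over the Tconv arrays, with the highest sum in that array. Several of the results that rest on it are also given without it. In RNA from bulk sorted cells, fewer cells of a type and less RNA per cell cannot be told apart.

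Of the 12798 genes tested, 2486 were called between NOD Treg and NOD Tconv (19.4%). Of these, 1414 were higher in Treg (11.0%) and 1072 lower (8.38%). By at least 2-fold, 236 were higher and 77 lower, and by at least 8-fold 8 and 6. The median size of the called differences was 0.44. All 4 Treg arrays lay above all 4 Tconv arrays for 1536 genes and below them for 1410. Of the called genes, 1271 of the higher and 958 of the lower had arrays that did not overlap, and 257 had arrays that did. Without the first fusion Tconv array 1957 genes were called, 1167 higher and 790 lower. Centring each array on its median moved the median difference of all genes from -0.01 to -0.05 and gave 1130 higher and 1195 lower.

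**Figure D1:**
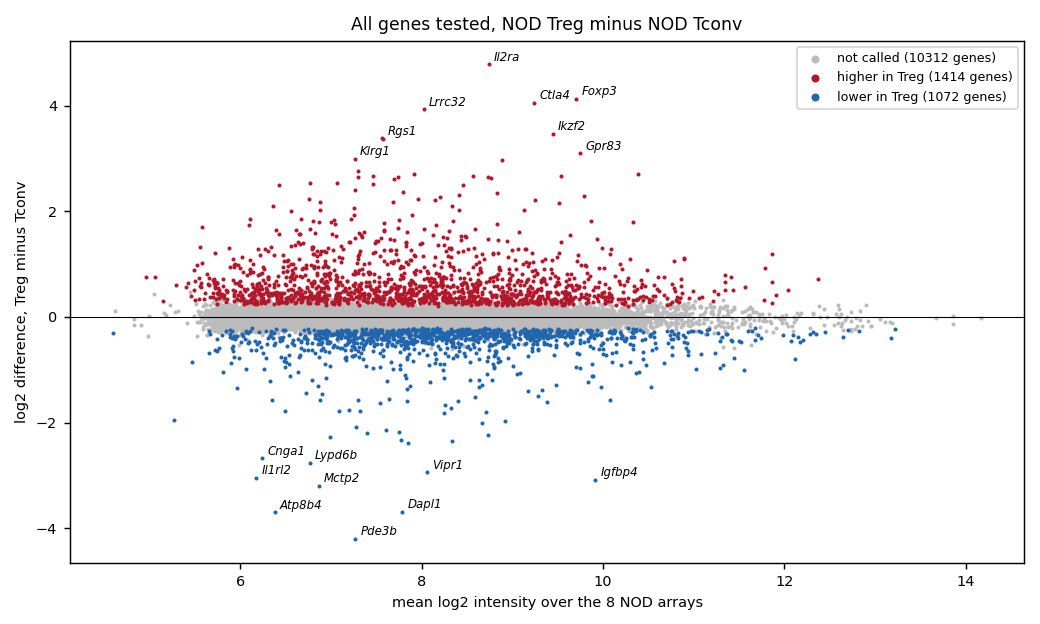
Log2 difference, NOD Treg minus NOD Tconv (vertical axis), against the mean log2 intensity over the 8 NOD arrays (horizontal axis) for the 12798 genes tested, 1 point per gene. Red points were called higher in Treg (1414), blue points lower (1072) and grey points were not called; Il2ra and Pde3b lie farthest out.

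The largest rise was that of Il2ra, the alpha chain that gives the interleukin-2 receptor its high affinity. Its Treg arrays read 11.12 and 11.37 (fusion) and 10.78 and 11.26 (ires). Its Tconv arrays read 5.91 and 6.82 (fusion) and 6.94 and 5.73 (ires). The groups were far apart, at 4.78 ± 0.25 or 27.4-fold (adjusted p = 1.62e-07). The lowest Tconv arrays of Il2ra (5.73 and 5.91) lay below log2 6.06, the level of the filter on dim genes. The size of this rise therefore rests in part on dim values. Ctla4, the inhibitory receptor that takes up CD80 and CD86 from antigen-presenting cells, read 11.43 and 11.50 (fusion) and 11.05 and 11.08 (ires) in Treg. In Tconv it read 7.37 and 7.71 (fusion) and 7.10 and 6.68 (ires), a difference of 4.05 ± 0.11 (adjusted p = 2.81e-09). No Treg array of Ctla4 came near a Tconv array.

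The largest fall was that of Pde3b, a phosphodiesterase that breaks down cyclic AMP and is silenced by Foxp3. Its Treg arrays read 4.91 and 5.07 (fusion) and 5.24 and 5.47 (ires). Its Tconv arrays read 9.34 and 9.47 (fusion) and 9.40 and 9.27 (ires). The Tconv arrays were close together and all of them high, and Pde3b was 18.4-fold lower in Treg (-4.20 ± 0.10, adjusted p = 1.98e-09). All its Treg arrays lay below log2 6.06, the level of the filter on dim genes, so the size of this fall rests on dim values. Dapl1, a gene of resting T cells, read 5.83 to 6.13 in Treg and 9.35 to 9.93 in Tconv (-3.69 ± 0.12), and Igfbp4, a binding protein for insulin-like growth factors, 8.04 to 8.56 and 11.20 to 11.68 (-3.09 ± 0.13). Neither gene's groups overlapped. The Treg arrays of Dapl1 lay near or below the filter level, so the size of its fall rests in part on dim values.

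**Figure D2:**
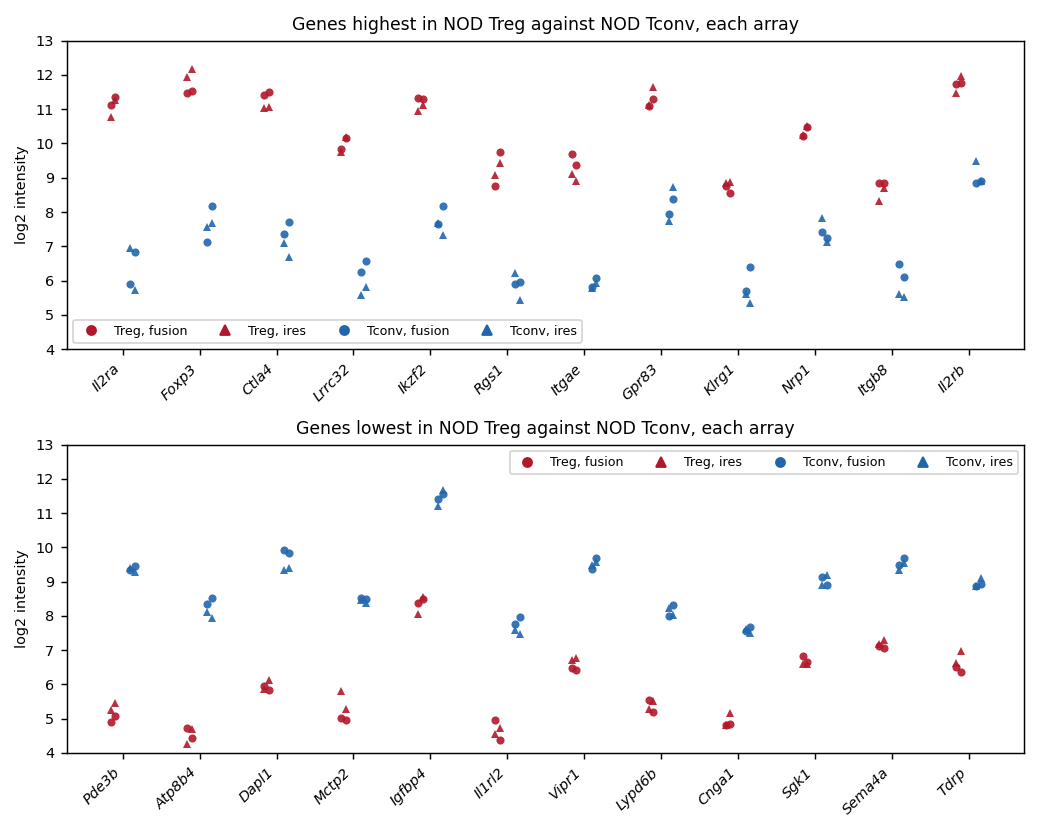
Log2 intensity in each NOD array for the 12 genes highest (upper panel) and the 12 lowest (lower panel) in Treg against Tconv. Red marks are Treg and blue marks Tconv, circles are the fusion line and triangles the ires line; genes were chosen among those whose Treg and Tconv marks do not overlap, so the separation is part of the choice.

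The start sites of 5 named genes are shown here: Foxp3, which set the gate, Il2ra, the largest riser, and Prdm1, Dapl1 and Sgk1, chosen because their windows hold a match to a searched motif. They are the 250 bases before the annotated start in RefSeq on GRCm38.p6, the C57BL/6J reference, read 5′ to 3′ on the gene's strand, so they need not carry the NOD sequence. Of the genes tested, 10267 had an entry. Capitals mark a match, on either strand, to a forkhead motif (GTAAACA) in Dapl1 and Prdm1 and to a STAT motif (TTCNNNGAA) in Sgk1, a kinase that fell in Treg.
Foxp3, chrX:7579426-7579675, + strand: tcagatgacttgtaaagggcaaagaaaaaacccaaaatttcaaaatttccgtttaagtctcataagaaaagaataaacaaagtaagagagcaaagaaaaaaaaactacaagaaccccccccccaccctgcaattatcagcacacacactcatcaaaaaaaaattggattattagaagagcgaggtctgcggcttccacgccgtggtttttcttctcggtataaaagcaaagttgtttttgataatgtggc
Il2ra, chr2:11642542-11642791, + strand: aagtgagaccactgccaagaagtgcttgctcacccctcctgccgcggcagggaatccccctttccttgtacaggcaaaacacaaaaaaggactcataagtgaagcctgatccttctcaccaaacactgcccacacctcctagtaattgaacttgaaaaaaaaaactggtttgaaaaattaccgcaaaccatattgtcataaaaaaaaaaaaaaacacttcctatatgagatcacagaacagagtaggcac
Prdm1, chr10:44458749-44458998, - strand: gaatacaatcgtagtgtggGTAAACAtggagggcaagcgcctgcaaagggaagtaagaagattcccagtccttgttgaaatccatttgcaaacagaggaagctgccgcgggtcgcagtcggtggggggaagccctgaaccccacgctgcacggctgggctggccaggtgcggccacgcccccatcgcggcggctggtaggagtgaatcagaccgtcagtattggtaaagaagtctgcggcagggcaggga
Dapl1, chr2:59484403-59484652, + strand: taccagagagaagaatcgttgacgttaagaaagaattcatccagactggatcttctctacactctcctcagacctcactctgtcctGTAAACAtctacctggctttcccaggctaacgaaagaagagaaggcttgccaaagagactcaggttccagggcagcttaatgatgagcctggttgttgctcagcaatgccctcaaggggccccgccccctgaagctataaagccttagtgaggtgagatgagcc
Sgk1, chr10:21881934-21882183, + strand: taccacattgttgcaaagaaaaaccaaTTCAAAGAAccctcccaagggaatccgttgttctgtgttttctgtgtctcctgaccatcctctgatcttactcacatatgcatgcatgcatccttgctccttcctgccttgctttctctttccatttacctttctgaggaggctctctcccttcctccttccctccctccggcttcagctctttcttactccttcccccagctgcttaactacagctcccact

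Foxp3 and Il2ra held none of these letters, nor an AP-1 motif (TGACTCA) or an NF-kB motif (GGAANTTCC), in the window shown. Windows of 21 named genes were looked at in this way, and most held no match. Atp8b4 (AP-1) and Il1rl2 (NF-kB) also held a match and are not shown. The motifs differ from each other, though the STAT and NF-kB letters both hold GAA and TTC. The STAT letters stood in 7.57% of the 185 windows of genes higher by at least 2-fold, in 1.67% of the 60 of genes lower by at least 2-fold and in 5.96% of all tested. The forkhead letters stood in 4.32%, 3.33% and 2.26% in the same order. For AP-1 the shares were 6.49%, 3.33% and 3.06%, and for NF-kB 2.70%, 1.67% and 0.925%. The shares for STAT and NF-kB in genes lower by at least 2-fold are 1 window of 60 each. Over all called genes, with no limit on size, the STAT letters stood in 5.81% of the windows of higher and 5.67% of those of lower genes, and the forkhead letters in 2.32% and 2.43%, close to the shares of all genes tested. For AP-1 these shares were 3.57% and 2.31%, and for NF-kB 1.16% and 1.16%. The shares describe short windows and were not tested.

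Transcription factors tied to Treg identity formed a list of 27 genes, of which 26 were measured and 25 passed the filter on dim genes. In NOD Treg 19 rose and 3 fell, with a median difference of 1.01 beside -0.01 over all genes tested and 88.0% called beside 19.4%. The called share of each list below stands beside the same 19.4% of all genes. Ikzf2, which encodes Helios, read 11.32 and 11.29 (fusion) and 10.95 and 11.13 (ires) in Treg, against 7.66 and 8.17 (fusion) and 7.68 and 7.34 (ires) in Tconv. All Treg arrays were higher, by 3.46 ± 0.12 (adjusted p = 7.74e-09). Its relative Ikzf4 (Eos), a partner of Foxp3 in silencing, rose by 1.92 ± 0.13. The effector Treg factors Prdm1 (Blimp-1) and Irf4 rose by 1.52 ± 0.18 and 1.43 ± 0.08, and Hif1a, the oxygen-sensing factor, by 1.01 ± 0.08. Maf (1.46 ± 0.13), the NF-kB subunit Rel (0.98 ± 0.09), Batf (0.73 ± 0.11) and Gata3 (0.61 ± 0.07) rose as well.

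Prdm1 read 8.58 and 8.45 (fusion) and 7.80 and 7.59 (ires) in Treg, against 6.77 and 6.24 (fusion) and 6.75 and 6.58 (ires) in Tconv. Irf4 read 8.30 and 8.21 (fusion) and 8.07 and 8.27 (ires) in Treg, against 6.66 and 6.74 (fusion) and 6.90 and 6.82 (ires) in Tconv. In both genes every Treg array lay above every Tconv array. The 3 that fell were Id2 (-2.24 ± 0.11), an inhibitor of E proteins, Ikzf1 (-0.65 ± 0.07), which encodes Ikaros, and Runx3 (-0.41 ± 0.07). Id2 read 7.32 to 7.79 in Treg and 9.55 to 10.07 in Tconv, with no overlap. Runx1 (-0.18 ± 0.07) and Cbfb (-0.13 ± 0.07), which bind Foxp3 as a complex, were not called.

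Of the genes of interleukin-2 and related cytokine signalling, those called were all higher in Treg. Of 32 cytokine receptor, STAT5 and feedback genes, 27 were measured and tested, 15 rose and 0 fell (median 0.42, 55.6% called). After Il2ra, the shared beta chain Il2rb rose most (2.70 ± 0.14), with 11.72 and 11.78 (fusion) and 11.49 and 11.96 (ires) in Treg, against 8.84 and 8.89 (fusion) and 9.49 and 8.92 (ires) in Tconv. The first ires Tconv array was the highest Tconv array of Il2rb and still lay below every Treg array. Among inhibitors that STAT5 induces, Socs2 rose by 2.67 ± 0.13 and Cish by 1.66 ± 0.14. A second probe set of Socs2 differed by 0.89. It had the lower mean over the 16 arrays (7.13 against 7.41) but the higher mean in NOD Tconv (6.61 against 6.13). Both fusion Tconv arrays of the set used lay below the filter level, so the size of the Socs2 rise rests in part on dim values. The signal carriers Stat5a and Stat5b rose by 0.48 ± 0.08 and 0.35 ± 0.07. Receptors for other cytokines rose too, among them Il10ra (1.25 ± 0.11) and Ifngr1 (1.20 ± 0.08).

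Receptors that restrain or license T cells rose where they were called. Of 26 costimulatory and inhibitory receptor genes, 23 passed the filter, 16 rose and none fell (median 0.55, 69.6% called). Tigit, an inhibitory receptor, read 10.55 and 10.09 (fusion) and 9.74 and 9.62 (ires) in Treg, against 7.56 and 7.80 (fusion) and 7.60 and 7.67 (ires) in Tconv, a rise of 2.34 ± 0.14. Icos, a costimulatory receptor, read 11.13 and 11.07 (fusion) and 10.39 and 10.49 (ires) in Treg, against 8.69 and 8.98 (fusion) and 9.23 and 8.95 (ires) in Tconv, a rise of 1.81 ± 0.16. The groups of both genes were separate, and the fusion Treg arrays of Icos were above the ires Treg arrays. CTLA-4's own ligand genes Cd86 and Cd80 rose by 1.34 ± 0.10 and 1.25 ± 0.11, Cd200 by 1.27 ± 0.13, Lag3 by 1.06 ± 0.10 and Pdcd1, which encodes PD-1, by 0.68 ± 0.10. All but the second fusion Tconv array of Cd86 lay below the filter level, so the size of its rise rests in part on dim values. Cd28 (-0.07 ± 0.07) and Btla (-0.21 ± 0.11) were not called.

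In the TNF receptor and ligand families 28 of 29 genes were measured and 27 tested, with 15 higher and 7 lower (median 0.33, 81.5% called). The receptors led the rise. Tnfrsf4 (OX40) read 10.94 and 10.91 (fusion) and 10.72 and 10.91 (ires) in Treg, against 8.29 and 8.50 (fusion) and 8.12 and 7.91 (ires) in Tconv (2.66 ± 0.09). Tnfrsf9 (4-1BB) rose by 2.65 ± 0.10, Tnfrsf1b (TNF receptor type 2) by 2.16 ± 0.08 and Tnfrsf18 (GITR) by 1.47 ± 0.07. The adaptor Traf1 rose by 0.91 ± 0.12. Ligands were among the genes that fell: Cd40lg, the helper signal to B cells, fell by 1.66 ± 0.13, the death ligand Fasl fell by 0.96 ± 0.12 and Tnfsf8 (CD30 ligand) fell by 0.90 ± 0.15. Cd40lg was at 7.02 to 7.81 in Treg and 8.89 to 9.31 in Tconv, without overlap. Lta, Tnf, Tnfsf10 and Tnfsf11 are ligands that rose, by 0.76, 0.38, 0.65 and 0.32.

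Molecules of suppression, adenosine and cyclic AMP, and TGF-beta handling moved in both directions. Of 31 such genes 29 were measured and 27 tested, 14 rose and 9 fell (median 0.38, 85.2% called). Lrrc32, which encodes GARP and holds latent TGF-beta on the Treg surface, read 9.83 and 10.17 (fusion) and 9.75 and 10.20 (ires) in Treg, against 6.26 and 6.58 (fusion) and 5.59 and 5.80 (ires) in Tconv. That is a rise of 3.93 ± 0.16 (adjusted p = 2.12e-08) with no overlap. Both ires Tconv arrays of Lrrc32 lay below the filter level, so the size of its rise rests in part on dim values. Itgb8, a subunit of the integrin that frees TGF-beta from its latent form, rose by 2.76 ± 0.12, and the receptor Tgfbr1 by 1.29 ± 0.10. The other receptors Tgfbr2 (-1.07 ± 0.07) and Tgfbr3 (-1.98 ± 0.12) fell, and Tgfb1 itself rose by 0.37 ± 0.07.

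The ectoenzymes that turn extracellular ATP into adenosine, Entpd1 (CD39) and Nt5e (CD73), rose by 2.41 ± 0.20 and 2.03 ± 0.14. Entpd1 read 8.64 and 8.60 (fusion) and 8.40 and 8.24 (ires) in Treg, against 6.34 and 6.01 (fusion) and 6.55 and 5.33 (ires) in Tconv, and no Treg array fell among the Tconv arrays. The second Tconv array of each line lay below the filter level, so the size of the Entpd1 rise rests in part on dim values. Beside Pde3b, the cyclic AMP phosphodiesterases Pde7a (-0.65 ± 0.08), Pde4d (-0.61 ± 0.08) and Pde4b (-0.48 ± 0.07) fell. Of the effector molecules, Gzmb (granzyme B) rose by 2.24 ± 0.13, Fgl2 by 2.01 ± 0.22, the opioid precursor Penk by 2.65 ± 0.14 and the interleukin-35 subunit Ebi3 by 0.66 ± 0.11, while perforin (Prf1) fell by 1.16 ± 0.10. Il10 was not called: it read 5.46 and 5.76 (fusion) and 4.98 and 4.86 (ires) in Treg, against 5.37 and 4.39 (fusion) and 4.84 and 4.75 (ires) in Tconv (0.43 ± 0.19, adjusted p = 0.157). The groups overlapped, and every NOD array of Il10 lay below the filter level.

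Homing genes were higher in Treg in 13 and lower in 1 of the 28 tested, out of 30 listed and 29 measured (median 0.22, 50.0% called). Itgae (CD103), the integrin chain that binds E-cadherin on epithelium, read 9.69 and 9.37 (fusion) and 9.12 and 8.89 (ires) in Treg. It read 5.80 and 6.08 (fusion) and 5.78 and 5.92 (ires) in Tconv, a rise of 3.37 ± 0.12 (adjusted p = 8.14e-09). Tconv arrays of Itgae stayed in a narrow band well below Treg. All but the second fusion Tconv array lay below the filter level, so the size of the Itgae rise rests on dim values. Nrp1 (neuropilin-1), a surface mark of thymus-derived Treg, rose by 2.96 ± 0.14. Among chemokine receptors, Ccr8, Ccr6 and Ccr4 rose by 2.54 ± 0.11, 2.06 ± 0.14 and 2.02 ± 0.22, and Ccr2 by 1.50 ± 0.24. The Tconv arrays of Ccr8 all lay below the filter level. Cxcr3, the receptor for interferon-induced chemokines, rose by 0.94 ± 0.24. Cxcr6 was the homing gene that fell (-1.57 ± 0.25). Itgal, Itga4 and Itgb2, integrin chains of all T cells, were not called.

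Other genes known from Treg signatures were measured in 30 of 30 cases and tested in 29, of which 26 rose and 0 fell, with the highest median of the lists (1.42) and 89.7% called. Rgs1, which shortens chemokine receptor signals, read 8.76 and 9.75 (fusion) and 9.08 and 9.43 (ires) in Treg, against 5.89 and 5.95 (fusion) and 6.23 and 5.42 (ires) in Tconv (3.38 ± 0.21). Gpr83, an orphan-type G protein-coupled receptor long used as a Treg mark, read 11.08 and 11.31 (fusion) and 11.13 and 11.66 (ires) in Treg, against 7.95 and 8.38 (fusion) and 7.73 and 8.73 (ires) in Tconv (3.10 ± 0.20). Klrg1, a lectin-like inhibitory receptor of differentiated Treg, read 8.75 and 8.55 (fusion) and 8.86 and 8.87 (ires) in Treg, against 5.70 and 6.41 (fusion) and 5.61 and 5.33 (ires) in Tconv (2.99 ± 0.18). All 3 genes had separate groups. Most Tconv arrays of Rgs1 and Klrg1 lay below the filter level, so the sizes of their rises rest in part on dim values. Capg, an actin-capping protein, rose by 2.70 ± 0.10 and Arhgap20 by 2.53 ± 0.24. All Tconv arrays of Arhgap20 lay below the filter level, so the size of its rise rests on dim values. The genes of this list are known from such signatures, so the list's direction is no independent evidence.

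Genes of naive and recirculating T cells went the other way. All 24 measured genes of 28 were tested, 18 fell and 2 rose (median -0.71, 83.3% called). After Dapl1 and Igfbp4, the falls were led by Tdrp (-2.32 ± 0.10), Nsg2 (-1.79 ± 0.08) and the actin crosslinker Actn1 (-1.37 ± 0.12). The resting T cell factor Lef1 fell by 1.00 ± 0.09, the lymph node homing receptor Ccr7 fell by 0.97 ± 0.08 and the interleukin-7 receptor chain Il7r fell by 0.91 ± 0.11. Ccr7 read 10.55 to 11.01 in Treg and 11.75 to 11.83 in Tconv, and Il7r 10.59 to 11.26 and 11.72 to 11.88. Neither overlapped. Id3 and Foxo1 were the exceptions that rose, by 0.63 ± 0.10 and 0.30 ± 0.07.

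Several of the 12 lowest genes belong to no list. Atp8b4, a phospholipid-transporting ATPase, read 4.73 and 4.44 (fusion) and 4.26 and 4.69 (ires) in Treg, against 8.34 and 8.53 (fusion) and 8.11 and 7.95 (ires) in Tconv (-3.70 ± 0.12). Il1rl2, the receptor for interleukin-36, read 4.96 and 4.38 (fusion) and 4.56 and 4.72 (ires) in Treg, against 7.76 and 7.98 (fusion) and 7.60 and 7.46 (ires) in Tconv (-3.05 ± 0.13). In both genes, as in Pde3b, Mctp2, Lypd6b and Cnga1, all Treg arrays lay below the filter level, so the sizes and order of these falls rest on dim values. Mctp2, a membrane protein with C2 domains, fell by 3.19 ± 0.14, and Vipr1, a receptor for vasoactive intestinal peptide, fell by 2.94 ± 0.09. A second probe set of Vipr1 differed by -1.54. Lypd6b fell by 2.76 ± 0.11, the channel subunit Cnga1 fell by 2.67 ± 0.09, the kinase Sgk1 fell by 2.38 ± 0.09 and the semaphorin Sema4a fell by 2.35 ± 0.09.

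The T cell receptor complex and its signalling genes showed mostly small differences. Of 32 genes 29 were measured and tested, 3 rose and 8 fell (median -0.01, 37.9% called). Themis, a thymic selection gene, fell most (-1.61 ± 0.10), followed by the adaptor Pag1 (-0.56 ± 0.08), Cd4, Nfatc3 (-0.35 ± 0.08), Cd3d (-0.33 ± 0.07) and Lat (-0.31 ± 0.08). Themis read 8.31 to 8.83 in Treg and 10.01 to 10.31 in Tconv, without overlap. The risers Ubash3a, Nfatc1 and Dgkz were between 0.21 and 0.28; the count of 3 became 0 without any single array of the ires line or without the first fusion Tconv array, and 1 without either fusion Treg array. Cd3g (-0.02 ± 0.07) was not called.

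Among 30 measured immediate-early, RGS and dual-specificity phosphatase genes 29 were tested, 11 rose and 2 fell (median 0.23, 44.8% called). Dusp4, a phosphatase of MAP kinases, read 9.02 and 8.96 (fusion) and 8.92 and 9.04 (ires) in Treg, against 6.62 and 6.76 (fusion) and 6.51 and 6.56 (ires) in Tconv (2.37 ± 0.07). Nr4a1, which follows T cell receptor strength, rose by 1.41 ± 0.11, Dusp1 by 1.02 ± 0.14 and Dusp5 by 0.76 ± 0.09. Dusp4 and Nr4a1 had separate groups. Dusp10 (-0.96 ± 0.08) and Dusp6 (-0.61 ± 0.08) fell. Fos (0.20 ± 0.10), Jun (0.62 ± 0.22) and Cd69 (0.27 ± 0.12), which also answer to handling of cells, were not called. Of the ubiquitin ligases and partners of T cell tolerance, 17 of 20 were tested: Tnip1 (0.72 ± 0.08), Cbl (0.50 ± 0.07), Ndfip1 (0.45 ± 0.07) and Cblb (0.45 ± 0.08) rose, Nedd4l (-0.47 ± 0.08) fell, and Itch (-0.06 ± 0.08) was not called (median 0.06, 29.4% called).

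Many helper cytokine genes were dim. Of 23 measured cytokine and lineage genes 16 passed the filter, 4 rose and 2 fell (median 0.03, 37.5% called). Irf8 and Tox, regulators of differentiation, rose by 0.89 ± 0.11 and 0.86 ± 0.08, and Eomes, a factor of cytotoxic cells, by 0.54 ± 0.13. Pou2af1, a coactivator of octamer factors, fell by 0.92 ± 0.12 and Zbtb16 (PLZF) fell by 0.76 ± 0.15. Il2 was among the 7 genes that did not pass the filter.

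Part of the proliferation genes rose in Treg. Of 42 cell cycle genes 40 were measured and 39 tested, 18 rose and 0 fell (median 0.31, 46.2% called); without the first fusion Tconv array 11 rose. Mki67, the mark of cycling cells, read 8.61 and 8.26 (fusion) and 7.91 and 7.95 (ires) in Treg, against 6.51 and 6.59 (fusion) and 6.65 and 7.40 (ires) in Tconv (1.40 ± 0.20, adjusted p = 0.000423). Its second ires Tconv array stood above the other 3 Tconv arrays. Cyclin A2 (Ccna2) rose by 1.05 ± 0.15, Cdk6 by 0.83 ± 0.11 and the mitotic kinesin Kif20a by 0.78 ± 0.08. Top2a, a topoisomerase of dividing cells, was 1.39 higher in the fusion line and 0.24 in the ires line (0.81 ± 0.22 over both); it lost its call without any single fusion array, with adjusted p between 0.0621 and 0.0662. In the fusion line alone 17 cell cycle genes rose, in the ires line alone 5, beside 843 and 774 of all 12798 genes tested. The main test of the difference between the lines called 0 genes.

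In the BCL-2 family and death genes, 23 of 28 were measured and tested, 8 rose and 1 fell (median 0.24, 39.1% called). Bcl2l1, which encodes the survival protein Bcl-xL, rose by 1.00 ± 0.07, and the pro-death Pmaip1 (Noxa) and Bid by 0.92 ± 0.10 and 0.60 ± 0.09. The inflammatory caspase Casp4 rose by 1.02 ± 0.22. Casp1 rose by 0.69 ± 0.21 over all arrays and lost its call without any one of 6 arrays (adjusted p = 0.0649 without the first fusion Tconv array). Pycard, the adaptor of the inflammasome, fell by 0.43 ± 0.08. Bcl2 (-0.28 ± 0.14) and Bcl2l11 (Bim, 0.13 ± 0.12) were not called.

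**Figure D3:**
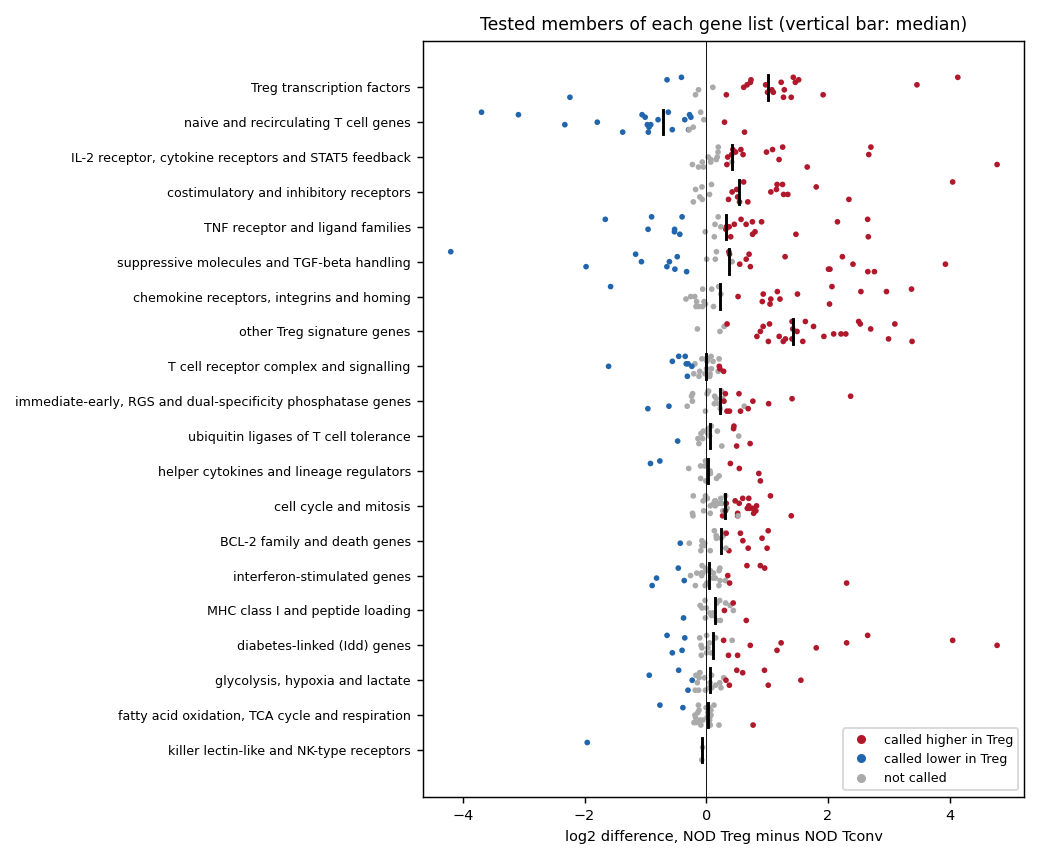
Log2 difference, NOD Treg minus NOD Tconv (horizontal axis), of every tested member of 20 gene lists (rows), 1 point per gene. Red points were called higher in Treg, blue points lower and grey points were not called, and the black bar is the list's median; other Treg signature genes have a median of 1.42, naive and recirculating T cell genes of -0.71.

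Interferon-stimulated genes were called in both directions. Of 30 measured and tested genes (36 listed), 6 rose and 4 fell (median 0.04, 33.3% called). The risers were led by GTPases that interferon-gamma induces, Gbp3 (2.31 ± 0.14), Iigp1 (0.96 ± 0.12) and Gbp7 (0.89 ± 0.08), and the fallers by the antiviral synthetase genes Oas2 (-0.89 ± 0.16) and Oasl2 (-0.82 ± 0.20). Gbp3 read 9.82 and 9.85 (fusion) and 9.52 and 9.07 (ires) in Treg, against 7.52 and 7.35 (fusion) and 7.42 and 6.76 (ires) in Tconv, with no overlap. Oasl2 fell in the fusion line (-1.29) and was at -0.34 in the ires line, where it was not called. The mean over the list was 8.42 and 8.39 in the fusion line and 8.03 and 8.18 in the ires line in Treg. In Tconv it was 8.29 and 8.39 in the fusion line and 7.82 and 8.01 in the ires line, so the ires line was the lower of the lines in each cell type.

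MHC class I and peptide loading genes showed the same order of the lines. Of 20 measured and tested genes (26 listed) 3 rose and 1 fell (median 0.14), a called share of 20% beside 19.4% over all genes. Nlrc5, the transactivator of MHC class I, rose by 0.66 ± 0.08, and its 19 probe sets ranged from 0.29 to 0.66. Tapbpl rose by 0.44 ± 0.08. Tap1, a peptide transporter, rose by 0.30 ± 0.09 (adjusted p = 0.0478) but lost its call under 13 alternatives, with an adjusted p of 0.139 without the first fusion Tconv array and of up to 0.504 when the reporter line was left out of the model. The peptide trimmer Erap1 fell by 0.37 ± 0.08. The list mean was 10.38 and 10.36 in the fusion line and 9.68 and 9.99 in the ires line in Treg. In Tconv it was 10.17 and 10.24 in the fusion line and 9.57 and 9.80 in the ires line.

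The list of genes in or near the diabetes susceptibility (Idd) regions of NOD mice held 32 genes, 29 measured and 26 tested. Of these 11 rose and 4 fell (median 0.12, 57.7% called). Il2ra, Ctla4, Tnfrsf9, Gbp3 and Icos, already given with other lists, were the 5 largest. Cd101 and Erbb3 rose by 1.23 ± 0.09 and 1.16 ± 0.12, and Ikzf1 (-0.65), Cd55 (-0.56), Ly75 (-0.40) and Bach2 (-0.35) fell. The phosphatases Ptpn2 (0.05 ± 0.08) and Ptpn22 (0.03 ± 0.07) were not called.

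Metabolic genes had medians near that of all genes. Of 28 tested glycolysis, hypoxia and lactate genes (32 listed) 7 rose and 4 fell (median 0.05, 39.3% called), and the 4 became 2 without any one of 5 arrays, the first fusion Tconv array among them. The glucose transporter Slc2a3 rose by 1.55 ± 0.08, and the prolyl hydroxylases Egln3 and P4ha1, which HIF-1 induces, by 1.02 ± 0.10 and 0.96 ± 0.08. Pdk1, also a HIF-1 target, fell by 0.94 ± 0.12, and Ldha (0.06 ± 0.08) was not called. Of 28 tested genes of fatty acid oxidation, the TCA cycle and respiration (32 listed), Acadl rose (0.77 ± 0.12) and Idh2 (-0.76 ± 0.08) and Acadm (-0.38 ± 0.09) fell (median 0.02, 10.7% called). That is 3 of 28 beside 19.4% of all genes.

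Markers of other cells were mostly dim. Among 15 measured myeloid markers 6 were tested, and the summed intensities were 1051 to 1317 over the Treg arrays and 826 to 1088 over the Tconv arrays. Cybb, a subunit of the phagocyte oxidase, rose by 1.55 ± 0.13 and Itgam fell by 0.62 ± 0.13 (33.3% called beside 19.4% of all genes). Cybb was the brightest of these markers (mean 8.90 in Treg, 7.34 in Tconv), so it weighs most in the sums. The defining markers Lyz2 and Csf1r read 4.92 to 5.76 and 5.21 to 5.43 in Treg, below the filter of log2 6.06. In Tconv they read 4.78 to 6.30, highest in the first fusion array, and 5.14 to 5.57. Among CD8, NK and gamma-delta T cell markers 9 of 15 measured were tested; the sums were 1306 to 1421 over the Treg arrays and 1463 to 1846 over the Tconv arrays. Of these 9, 1 rose and 3 fell (44.4% called beside 19.4% of all genes). Eomes rose by 0.54 ± 0.13. Cd8b1 fell by 0.74 ± 0.10 (7.61 to 8.06 in Treg, 8.58 to 8.73 in Tconv), Gzmk by 0.42 ± 0.09 and Blk, also listed as a B cell marker, by 0.34 ± 0.09. Cd8a was not called (0.10 ± 0.10). Killer lectin-like receptor genes passed the filter in 3 of 18 cases, and Klrd1 fell by 1.96 ± 0.15 (33.3% called beside 19.4% of all genes). None of 5 tested red cell and platelet genes was called, and their sums were 399 to 504 over the Treg arrays and 390 to 453 over the Tconv arrays.

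Of 11 tested genes of dendritic cells and MHC class II, H2-Ob rose (1.16 ± 0.10) and H2-Ab1 fell (-0.78 ± 0.20), 18.2% called beside 19.4% of all genes; the list's 15 measured genes summed to 1402 to 1586 over the Treg arrays and 1223 to 1912 over the Tconv arrays. H2-Ab1 read 5.78 and 5.43 (fusion) and 5.51 and 5.65 (ires) in Treg, against 7.21 and 6.26 (fusion) and 6.10 and 5.92 (ires) in Tconv. The first fusion Tconv array was the highest, and H2-Ab1 was not called in the ires line alone (adjusted p = 0.398) or without the second fusion Treg array (adjusted p = 0.0553). Cd74 was not called over all arrays (0.07 ± 0.35, adjusted p = 0.928) but was higher in Treg by 0.58 without the first fusion Tconv array (adjusted p = 0.00792). Of 5 tested B cell markers 1 was called, 20% beside 19.4% of all genes. This was Blk, also listed with gamma-delta T cell markers, which fell by 0.34 ± 0.09. Blk lost its call without any one of 5 arrays (adjusted p = 0.0933 without the first fusion Tconv array). The largest difference among the 5 went the other way: Cd79b was at 7.23 in Treg and 6.72 in Tconv (0.52), not called. Without the first fusion Tconv array 1 marker rose. The part of other cells in any of these differences was not tested. Of 12 CD4 T cell markers 58.3% were called, beside 19.4% of all genes. Cd6 (0.55 ± 0.07), Cd5 (0.51 ± 0.07) and Cd2 (0.50 ± 0.08) rose and Cd4, Trat1, Cd3d and Lat fell. Trat1 lost its call without the first fusion Tconv array (adjusted p = 0.0542), the second (0.0590) or the first ires Treg array (0.0668), and in each line alone (adjusted p = 0.0684 in the fusion line and 0.297 in the ires line). The sums of these markers were 30936 to 33871 over the Treg arrays and 30296 to 32146 over the Tconv arrays.

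The comparison was then set out within each reporter line (2 against 2 arrays). In the fusion line 1378 genes were called (10.8%) and in the ires line 1104 (8.63%), with the spread pooled over the 4 NOD groups. Of the 2486 genes called over both lines, 1328 were called in the fusion line, 1087 in the ires line and 869 in each. All 2486 had the same sign in both lines, as an average over both lines favours. Across the 12798 genes the differences of the lines correlated with Pearson's r = 0.868 and a Spearman rank correlation of 0.649. This r is across genes, which are not independent replicates.

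A test of the difference between the lines called 0 genes (0%) with limma, and 398 genes had an unadjusted p under 0.05. With 2 arrays per group this does not show that the lines act alike. The gene nearest to a call was Ccdc22, which lies next to Foxp3 on the X chromosome. It read 8.71 and 8.83 (fusion) and 7.51 and 7.50 (ires) in Treg, against 7.90 and 8.06 (fusion) and 7.80 and 7.97 (ires) in Tconv. Its Treg arrays were above Tconv in the fusion line (0.79) and below in the ires line (-0.38), a difference between the lines of 1.17 ± 0.16 (adjusted p = 0.274). It was called with all 16 arrays in the model (adjusted p = 0.0490) and with trended, robust variances (adjusted p = 0.0179).

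Other genes far apart between the lines, chosen after their values were seen, were not called. Ccr2 was 2.19 higher in Treg of the fusion line and 0.81 in the ires line, Icos 2.27 and 1.35, and Prdm1 2.01 and 1.03. Nedd4, a ubiquitin ligase, was at 1.05 and 0.02, and Rrm2, a proliferation gene, at 1.22 and 0.18. Arhgap20 went the other way, with 1.84 and 3.22, and was called without the first ires Treg array (adjusted p = 0.0465). The Tconv arrays of Arhgap20 lay below the filter level in both lines, so its sizes rest on dim values. Foxp3 itself was at 3.84 and 4.42, and Il2ra at 4.88 and 4.68.

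**Figure D4:**
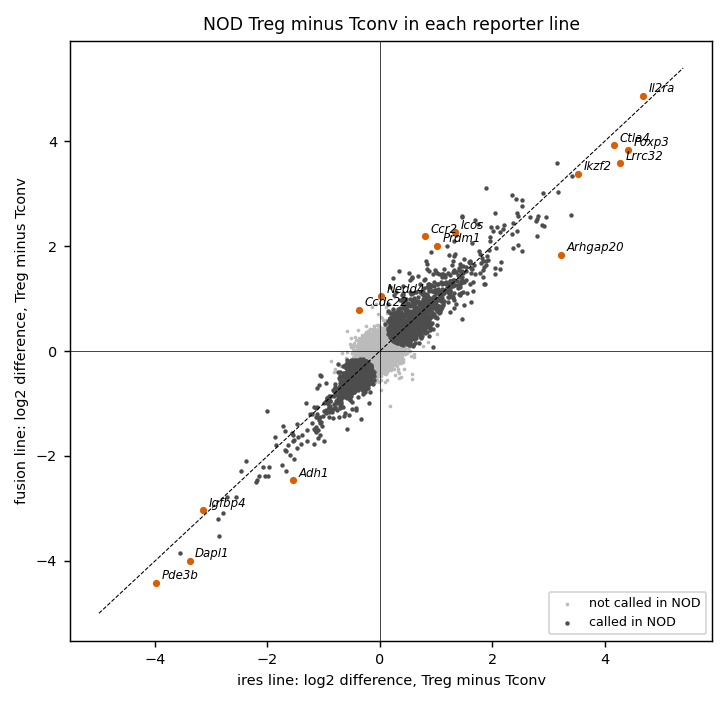
Log2 difference, Treg minus Tconv, in the fusion line (vertical axis) against that in the ires line (horizontal axis) of NOD mice for the 12798 genes tested, 1 point per gene. Dark points were called over both lines and the dashed line marks equal differences; Ccdc22 lies above 0 in the fusion line (0.79) and below 0 in the ires line (-0.38), and Arhgap20 lies below the dashed line.

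Against B6 mice, most of the comparison had the same direction. Of the 2486 genes called in NOD 2349 had the same sign in B6, and of the 313 that differed by at least 2-fold 310 did. The differences of NOD and B6 correlated across the 12798 genes with r = 0.858 and a rank correlation of 0.632, without any shared array. A test of NOD minus B6 over all 16 arrays called 105 genes (0.820%), 32 with a higher and 73 with a lower difference in NOD. Of the 105, 81 were also called in NOD, 33 had opposite signs in the strains and 38 had the larger absolute difference in NOD. Whichever array was left out, 60 of the 105 were called; without the first fusion Tconv array of B6 the count was 69. Sequence differences between NOD and B6 under the probes were not examined.

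Several Treg surface genes rose less in NOD than in B6. Tnfrsf4 differed by 2.66 in NOD and 3.64 in B6 (-0.97 ± 0.13, adjusted p = 0.000611). Its NOD Treg arrays (10.72 to 10.94) lay below the B6 Treg arrays (11.17 to 11.42), and its NOD Tconv arrays (7.91 to 8.50) lay above those of B6 (7.51 to 7.89). Tnfrsf18 differed by 1.47 and 2.41 (-0.94 ± 0.12, adjusted p = 0.000309). There too the Tconv of NOD (9.08 to 9.29) were above those of B6 (8.31 to 8.64).

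Lrrc32 (3.93 in NOD, 4.86 in B6), Ccr8 (2.54, 3.48), Pdcd1 (0.68, 1.69) and Socs2 (2.67, 3.79) were also called with a smaller rise in NOD. Of these, Lrrc32, Ccr8 and Pdcd1, like Tnfrsf4 and Tnfrsf18, were called whichever array was left out. Tigit (2.34, 3.07), Ccr4 (2.02, 2.89), Klrg1 (2.99, 4.43) and Il10 (0.43, 1.50) were called as well but lost the call without any one of 9 to 13 of the 16 arrays. The B6 Tconv arrays of Il2ra, Socs2, Klrg1, Ccr8 and Il10 all lay below the filter level, so the sizes of these differences rest on dim values. Foxp3 (NOD minus B6 -0.35 ± 0.22), Il2ra (-1.02 ± 0.30), Ctla4 (-0.43 ± 0.23) and Ikzf2 (-0.56 ± 0.18) were not called.

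Genes that fell in Treg differed between the strains as well. Pde3b differed by -4.20 in NOD and -5.04 in B6 (0.84 ± 0.16, adjusted p = 0.00946). Its Treg arrays lay below the filter level in both strains (4.91 to 5.47 in NOD, 4.79 to 5.24 in B6), and its Tconv arrays lay lower in NOD (9.27 to 9.47) than in B6 (9.84 to 10.31). The fall was larger in NOD for Sgk1 (-2.38 and -1.46), Nsg2 (-1.79 and -0.55) and Id2 (-2.24 and -1.21). Cnga1 was at -2.67 and -1.38, but its Treg arrays in both strains and its B6 Tconv arrays (5.59 to 5.88) lay below the filter level, so the size of its B6 fall is not known. Without the first ires Treg array of NOD the test called 46 genes with a lower difference in NOD, and without the second ires Tconv array of B6 it called 110.

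Some genes set Treg and Tconv farther apart in NOD than in B6 or the reverse. Cybrd1, a ferric reductase, read 8.38 and 8.27 (fusion) and 8.72 and 9.13 (ires) in NOD Treg, against 6.01 and 5.82 (fusion) and 6.03 and 6.03 (ires) in NOD Tconv. In B6 its Treg arrays lay at 6.63 to 7.14 and its Tconv arrays at 5.66 to 6.19. The difference was 2.65 in NOD and 0.83 in B6 (1.82 ± 0.18, adjusted p = 1.88e-05), and the NOD Treg arrays were the highest of the 16. The NOD Tconv arrays of Cybrd1 lay below the filter level, so these sizes rest in part on dim values. Gsta4, a glutathione transferase, was the reverse. It read 5.72 and 6.15 (fusion) and 6.26 and 5.84 (ires) in NOD Treg, a range that overlapped NOD Tconv (5.70 to 6.14). In B6 its Treg arrays lay at 8.36 to 8.67 and its Tconv arrays at 5.97 to 6.09 (-2.46 ± 0.17, adjusted p = 8.98e-08). Apart from B6 Treg, the arrays of Gsta4 lay near or below the filter level, so its sizes rest in part on dim values.

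Hopx, a small homeodomain protein, differed by 0.16 in NOD and 1.82 in B6, and Glrx (glutaredoxin) by 0.83 and 2.17. St6galnac2, a sialyltransferase, fell in NOD (-1.51; Treg 7.75 to 7.90, Tconv 9.12 to 9.85) and differed by -0.02 in B6, where all arrays were lower (6.37 to 7.07 and 6.55 to 6.90). Atrnl1 and Tex35 rose in NOD (1.26 and 1.32) and differed by -0.17 and -0.11 in B6. All B6 arrays of Tex35 (5.30 to 5.64) and its NOD Tconv arrays (5.52 to 5.99) lay below the filter level. Its B6 difference is therefore not known, and the size of its NOD rise rests on dim values. Lgmn, a lysosomal protease, rose by 1.50 in NOD beside 0.33 in B6, and its Tconv arrays were lower in NOD (7.59 to 8.01) than in B6 (8.33 to 8.68). Cd74 differed by 0.07 in NOD and 1.92 in B6 (adjusted p = 0.0347), a call lost without any one of 9 arrays; its NOD Tconv include the array that stood apart.

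**Figure D5:**
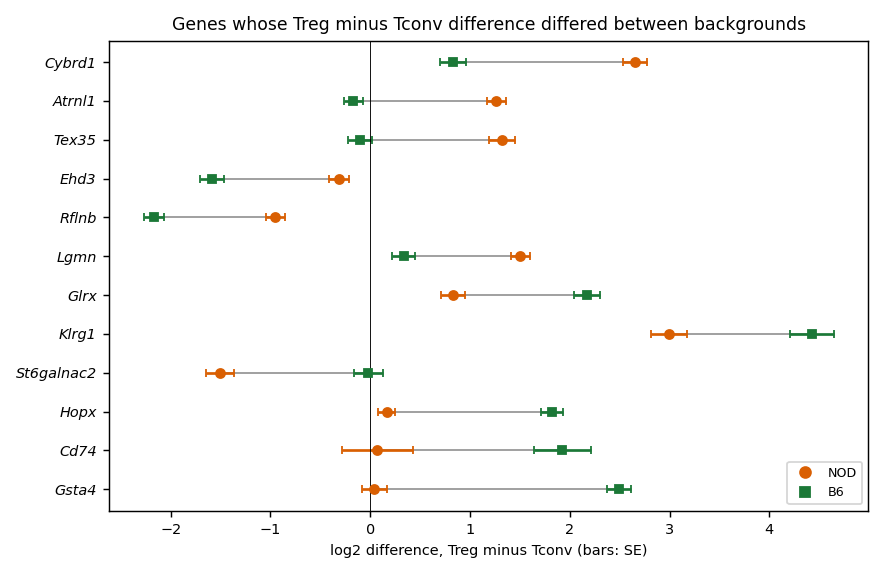
Log2 difference, Treg minus Tconv (horizontal axis), in NOD (orange circles) and B6 (green squares) for the 6 genes with the highest and the 6 with the lowest called NOD minus B6 difference among named genes; bars are SE. Cybrd1 differs most upward (2.65 in NOD, 0.83 in B6) and Gsta4 most downward (0.04 and 2.50).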

How the data were processed

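RNA from sorted spleen cells was hybridized to Affymetrix arrays. Per the submitters' processing notes the authors used Affymetrix Power Tools and RMA; for versions and genome build, nothing was given in the sources used here. The deposited table holds linear-scale intensities, as judged from their range, already normalized. Their log2 was taken with no pseudocount. Of 25108 probe sets, 21157 carried 1 gene symbol in GEO's platform table, 1341 several and 2610 none. They covered 19531 genes, and the probe set with the highest mean over 16 arrays stood for a gene. Genes above the 40th percentile (log2 6.06) on at least 2 of 16 arrays were tested.

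The main model, fitted with limma 3.58.1 in R 4.3.3 on the 8 NOD arrays, had terms for cell type and reporter line (5 residual and 6.25 prior degrees of freedom, two-sided moderated tests). Interaction terms tested the difference between reporter lines (8 arrays) and between NOD and B6 (16 arrays). P-values were adjusted over all 12798 genes. The models were tested on simulated data.

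The comparison and the gene lists, written from general knowledge and sharing some members, were chosen with earlier results of these data known. No list was tested as a set. The rule for naming genes took the 12 highest and 12 lowest called genes with separate arrays, up to 5 called per list, the 6 highest and lowest of each difference test, and a fixed set (Foxp3, Il2ra, Ctla4, Ikzf2, Irf4, Prdm1, Hif1a, Entpd1, Il10, Tigit, Icos, Lrrc32, Pde3b, Cd4 and Cd3e). Predicted genes, Rik clones and receptor segments were counted but not named; other genes were named after their values were seen. Alternatives were other filters, centring, quantile normalization, variance models, array weights, probe set rules, model terms, each line alone, a replicate block and leaving out each array.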

Additional observations from a re-analysis of the deposited data

Results flagged for a closer look

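For each of the 122 named genes the 4 NOD Treg and the 4 NOD Tconv arrays were checked for 1 array far from the other 3. Of 244 such groups 14 were flagged, and chance flags about 1 in 20. In Cd74 the first fusion Tconv array read 8.27 and the other Tconv arrays 6.10 to 6.46. Among Tconv arrays, Cybrd1 (5.82) was low and St6galnac2 (9.85) high in the second fusion array, Dusp10 (9.43), Ehd3 (10.85) and Il2rb (9.49) stood apart in the first ires array, and Mki67 (7.40) was high in the second ires array. Among Treg arrays, Aldoc (7.50) and Idh2 (8.48) stood apart in the first fusion array, Cish (9.32) and Tnfrsf4 (10.72) in the first ires array, and Cd5 (11.80), Cnga1 (5.17) and Tex35 (7.50) in the second ires array. No single array held more than 3 of the 14 flags.

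The difference between NOD and B6 in Treg minus Tconv was tested as an interaction. Flagged were 12 named genes, the 6 highest and the 6 lowest of those called. Other named genes, such as Lrrc32, Ccr8 and Pde3b, were called in the same test and are given above. The difference was above 0 for Cybrd1 (1.82 ± 0.18), Atrnl1 (1.43 ± 0.13), Tex35 (1.43 ± 0.17), Ehd3 (1.28 ± 0.17), Rflnb (1.22 ± 0.14) and Lgmn (1.17 ± 0.16). It was below 0 for Gsta4 (-2.46 ± 0.17), Cd74 (-1.85 ± 0.41), Hopx (-1.66 ± 0.16), St6galnac2 (-1.49 ± 0.20), Klrg1 (-1.44 ± 0.31) and Glrx (-1.34 ± 0.18). Ehd3 and Rflnb were farther below 0 in B6 than in NOD (-0.31 in NOD and -1.59 in B6, -0.95 and -2.17). In NOD alone Ehd3 was not called (adjusted p = 0.0502).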

How the results depend on the processing

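The count over the 8 NOD arrays moved most with each reporter line alone: 1378 genes called in the fusion line (843 higher, 535 lower) and 1104 in the ires line (774 higher, 330 lower). Leaving out each array in turn gave 1957 to 2222 called, 1167 to 1311 higher and 779 to 978 lower. Quantile normalization gave 1434 higher and 1377 lower. Of the 122 named genes, 116 were called and 110 of these whichever array was left out. Of 2791 combinations of named gene and setting 2718 kept their side of the threshold, 61 lost the call and 12 gained it. No gene called over the 8 NOD arrays changed direction under any setting. Changes of direction in genes not called were not counted: Cd74 was at 0.07 over both lines and at -0.43 in the fusion line alone. The difference between the lines called 1 gene, higher in the fusion line, with trended, robust variances and 1 with all 16 arrays; leaving out each array gave 0 to 1 called, 0 to 0 higher and 0 to 1 lower. NOD minus B6 gave 55 higher with quantile normalization, and 69 to 141 called, 22 to 39 higher and 46 to 110 lower when each array was left out. A replicate block gave 2717 called in NOD (1518 higher, 1199 lower) and 258 for NOD minus B6 (88 higher, 170 lower), but deviations of same-numbered arrays in NOD correlated with r = 0.239 (fusion) and 0.0803 (ires) and in B6 with 0.398 and 0.396; each rests on 2 numbers, 1 of the 4 was under 0.1 and the labels name nothing shared, so the numbers were not taken as pairs. The causes of these shifts were not tested, except that a line alone has fewer arrays. Dim genes and 2 arrays per group limit what could be called, and no scanner files were used, so background correction was not varied.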

Other observations

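Of the 313 genes that differed by at least 2-fold between NOD Treg and NOD Tconv, 211 belonged to no list, 150 of them higher and 61 lower in Treg. The genes below were chosen from these after their values were seen. They stand for no group of genes. Higher in Treg were Coro2a, a coronin (2.63 ± 0.15), the myosin Myo1e (2.62 ± 0.11) and the laminin chain Lamc1 (2.52 ± 0.09). Myo10, the myosin of filopodia, fell by 2.21 ± 0.09 and the integrin chain Itgb3 fell by 1.82 ± 0.07. Also higher were the insulin-like growth factor receptor Igf1r (1.53 ± 0.13), the receptor kinase Axl (1.33 ± 0.11) and its ligand family member Pros1 (1.86 ± 0.13), the RNA sensor Tlr7 (1.57 ± 0.21) and the macrophage growth factor Csf1 (1.76 ± 0.09). Igf1r read 9.16 to 9.35 in Treg and 7.45 to 8.11 in Tconv, and Pros1 7.27 to 7.96 and 5.56 to 5.92. Neither gene's groups overlapped. The Tconv arrays of Pros1 lay below the filter level, so the size of its rise rests on dim values.

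Among the genes that fell outside the lists were App, the amyloid precursor (-2.15 ± 0.17), Slc16a5, a monocarboxylate transporter (-2.09 ± 0.09) and the sialyltransferase St3gal6 (-1.76 ± 0.09). App read 6.28 to 6.97 in Treg and 8.31 to 8.99 in Tconv, without overlap. The hypoxia factor Epas1 (HIF-2 alpha) fell by 1.19 ± 0.10 while its relative Hif1a rose by 1.01 ± 0.08. Nfe2l2, the factor of the oxidative stress response, fell by 1.20 ± 0.10, and Pik3ip1, an inhibitor of PI3 kinase, fell by 1.33 ± 0.08. Epas1 was at 5.99 to 6.37 in Treg and 7.23 to 7.53 in Tconv, and Nfe2l2 at 7.55 to 8.23 and 9.01 to 9.27; in both genes all Treg arrays were the lower.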
